A study of Mus musculus with 9 samples.

Results

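The 35 genes followed here are those of glycolysis and of the handling of the pyruvate it yields. They were chosen by symbol from a list that runs from glucose uptake to the entry of pyruvate into mitochondria. All 35 were found among the 54532 genes counted, of which 30199 had at least 1 count. Aldoa is listed under 2 identifiers; the one used here is ENSMUSG00000030695, and the second held 19 to 66 counts per library. The genes fall into 17 steps. Of these, 10 have isozymes or alternative transporters, 2 have a pair of subunits and 5 a single gene.

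The tissue was the lambdoidal junction, the place where the prominences of the embryonic face (maxillary and medial and lateral nasal) meet and fuse to form the upper lip and primary palate. It was taken from untreated C57BL/6J mouse embryos at embryonic day (E) 10.5, 11.5 and 12.5, with 3 libraries per stage. Per the methods of the study each library came from a pool of many embryos, so that differences between single embryos are not seen. The RNA is that of the whole dissected tissue, and in such bulk libraries fewer cells of a type and less RNA per cell cannot be told apart.

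Glycolysis splits glucose into pyruvate in the cytosol, with a net gain of ATP and NADH. Pyruvate is then either reduced to lactate by lactate dehydrogenase, which regenerates NAD+ and lets the lactate leave the cell through monocarboxylate transporters, or carried into mitochondria and oxidized by the pyruvate dehydrogenase complex, which pyruvate dehydrogenase kinases switch off. Early mouse embryos are known for a high rate of lactate production, and many glycolytic genes are known targets of hypoxia-inducible factors and of Myc. Several steps have isozymes with tissue preferences, such as the ubiquitous Eno1, the neuronal Eno2 and the muscle Eno3.

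Total counts were 16581009 to 20836804 per library. One library stood apart: over 16363 genes, the deviation of E10.5 replicate 3 from its stage mean was related to GC content with a Spearman rho of -0.546, against 0.438 and 0.469 in the other E10.5 libraries and -0.26 to 0.274 at the later stages. Values that it changed by over 1.5 times, or whose call it changed, are also given without it where the gene was called with all libraries. Facial mesenchyme markers, among them Prrx1, Twist1, Pdgfra and Msx1, were present in every library, with a summed expression of 912 to 1464 CPM (counts scaled to library sizes normalized by TMM) at E10.5, 2115 to 2263 CPM at E11.5 and 2225 to 2482 CPM at E12.5. The skeletal muscle list was low, at 13.4 to 26.2 CPM, 7.64 to 10.4 CPM and 6.74 to 9.12 CPM summed over its 14 genes. In each comparison of 2 stages, 5 of the 14 had enough counts to be tested. E10.5 replicate 3 also stood apart in several marker sums. It held 912 CPM for facial mesenchyme (replicates 1 and 2: 1464 and 1428 CPM) and 104 CPM for endothelium (259 and 256 CPM). It held 698.5 CPM for surface epithelium (387 and 440 CPM) and 5198 CPM for cell cycle genes (3794 and 3868 CPM). Its erythroid sum of 4658 CPM lay between those of the others (4772 and 3550 CPM).

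Summed over the pathway, expression was lower at each later stage. The 35 genes summed to 10800, 11860 and 13100 CPM in the E10.5 libraries, 6761, 8502 and 7313 CPM in the E11.5 libraries and 5939, 5636 and 6561 CPM in the E12.5 libraries. The stages did not overlap, and the means were 11920 ± 1155 CPM, 7525 ± 890 CPM and 6045 ± 471 CPM (SD, n = 3 libraries each), a 1.97-fold difference between E10.5 and E12.5. As a share of all counts the genes took 1.07% to 1.19% in the first stage, 0.687% to 0.849% in the second and 0.583% to 0.664% in the third. Most of this sum came from Eno1, Pkm and Ldha, 3 genes with a mean of 2598, 2974 and 1491 CPM at E10.5.

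**Figure D1:**
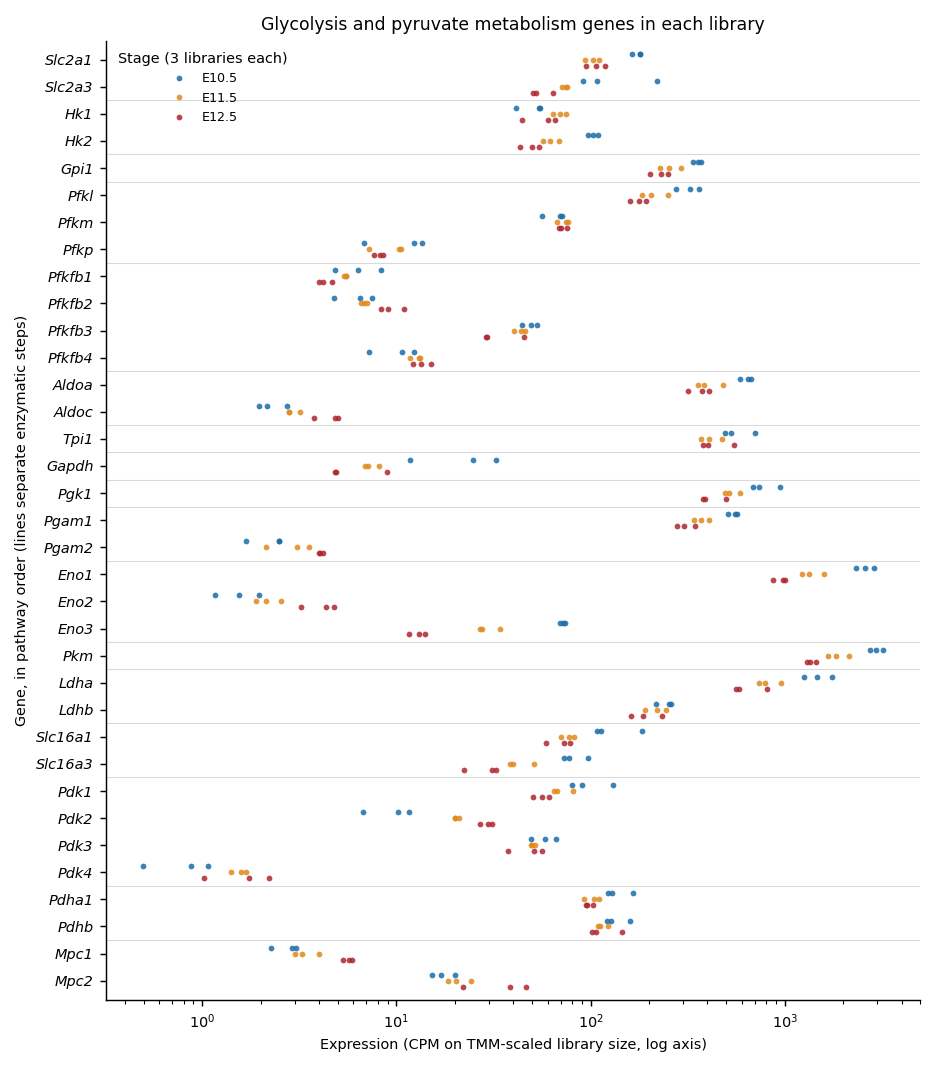
Expression of each of the 35 genes in each library (points; CPM on a log axis), in pathway order from glucose transporters at the top to the mitochondrial pyruvate carrier at the bottom; colours mark the stage. The E10.5 points lie to the right for the main glycolytic genes such as Eno1 (2334 to 2880 CPM, against 875 to 1004 CPM at E12.5), and to the left for Pdk2 (6.75 to 11.6 CPM, against 27.1 to 31.2 CPM).

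The first comparison, E11.5 vs. E10.5, spans the time at which the prominences come into contact. Here 14 of the 35 genes were downregulated at an adjusted p of at most 0.05 (edgeR's quasi-likelihood test, Benjamini-Hochberg adjustment over 15708 genes), against 5.58% of all genes tested. One gene was upregulated, against 6.19%. A DEG had, in addition, a log2 fold change of 1 or more in either direction. The downregulated DEGs were Eno3 and Gapdh (2.61% of all genes) and the upregulated DEG was Pdk2 (3.46%). Without E10.5 replicate 3, Pdk2 had a log2 fold change of 0.91 (adjusted p = 9.71e-05) and was no DEG. Slc16a3, at -1.02 (adjusted p = 4.19e-05), then was one. The median log2 fold change over the 35 genes was -0.44, beside -0.03 over all genes, and 24 of the 35 lay below 0. The number of downregulated genes depended on single libraries. Leaving out E10.5 replicates 1, 2 or 3 gave 13, 6 or 19 genes, the last without the library that stood apart, and leaving out E11.5 replicates 1, 2 or 3 gave 3, 9 or 2. The genes added without E10.5 replicate 3 were Slc2a3, Pfkp, Tpi1, Ldhb and Pdha1. Slc2a1 and Eno3 passed the test in all of these fits, and Pdk2 did not without any 1 of the E11.5 libraries. Eno1 held in 5 of the 6 fits with a library left out, Hk2, Ldha and Slc16a3 in 4, Aldoa, Pgam1 and Pkm in 3, Gapdh, Pgk1 and Slc16a1 in 2, and Gpi1 and Pfkl in 1.

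In the second, E12.5 vs. E11.5, Eno1, Eno3 and Slc16a3 were downregulated (3 of 35, against 4.57% of all 15808 genes tested) and Eno2, Pdk2 and Mpc1 upregulated (3 of 35, against 7.61%). Eno3 was the only DEG among the 35 (downregulated DEGs made up 0.962% and upregulated DEGs 4.14% of all genes). The median over the 35 genes was -0.18, beside 0.02 over all genes. These counts too moved with single libraries: 1 gene was downregulated without any 1 of the E11.5 libraries or without E12.5 replicate 1, 5 without E12.5 replicate 3, and 9 without E12.5 replicate 2. None was upregulated without any 1 of the E11.5 libraries or without E12.5 replicate 1, and 5 were without E12.5 replicate 2. Eno3 alone passed in each of these. Eno1, Eno2 and Pdk2 held in 2 of the 6, and Slc16a3 and Mpc1 in 1.

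Over the whole interval, E12.5 vs. E10.5, 16 of the 35 genes were downregulated, against 10.5% of 15899 genes tested, and 6 were upregulated, against 14.0%. The DEGs comprised 8 downregulated genes (Slc2a3, Hk2, Gapdh, Eno1, Eno3, Pkm, Ldha and Slc16a3), against 5.08%, and 5 upregulated genes (Aldoc, Eno2, Pdk2, Mpc1 and Mpc2), against 9.97%. The median over the 35 genes was -0.50, beside -0.01 over all genes. The downregulated count stayed between 12 and 17 when single libraries were left out. The upregulated count was less steady: it was 3 without E10.5 replicate 1, 3 without E12.5 replicate 3 and 1, Pdk2, without E12.5 replicate 1. Of the downregulated genes, Slc2a1, Slc2a3, Pgk1 and Slc16a1 held in 5 of the 6 fits, Pdk1 in 4, Gpi1 in 3 and the other 10 in all. With the 3 stages fitted together on all 9 libraries, 22 of the 35 genes passed the test, against 28.3% of 16375 genes. E12.5 vs. E10.5 shares its libraries with the other comparisons and is no independent repeat of them.

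**Figure D2:**
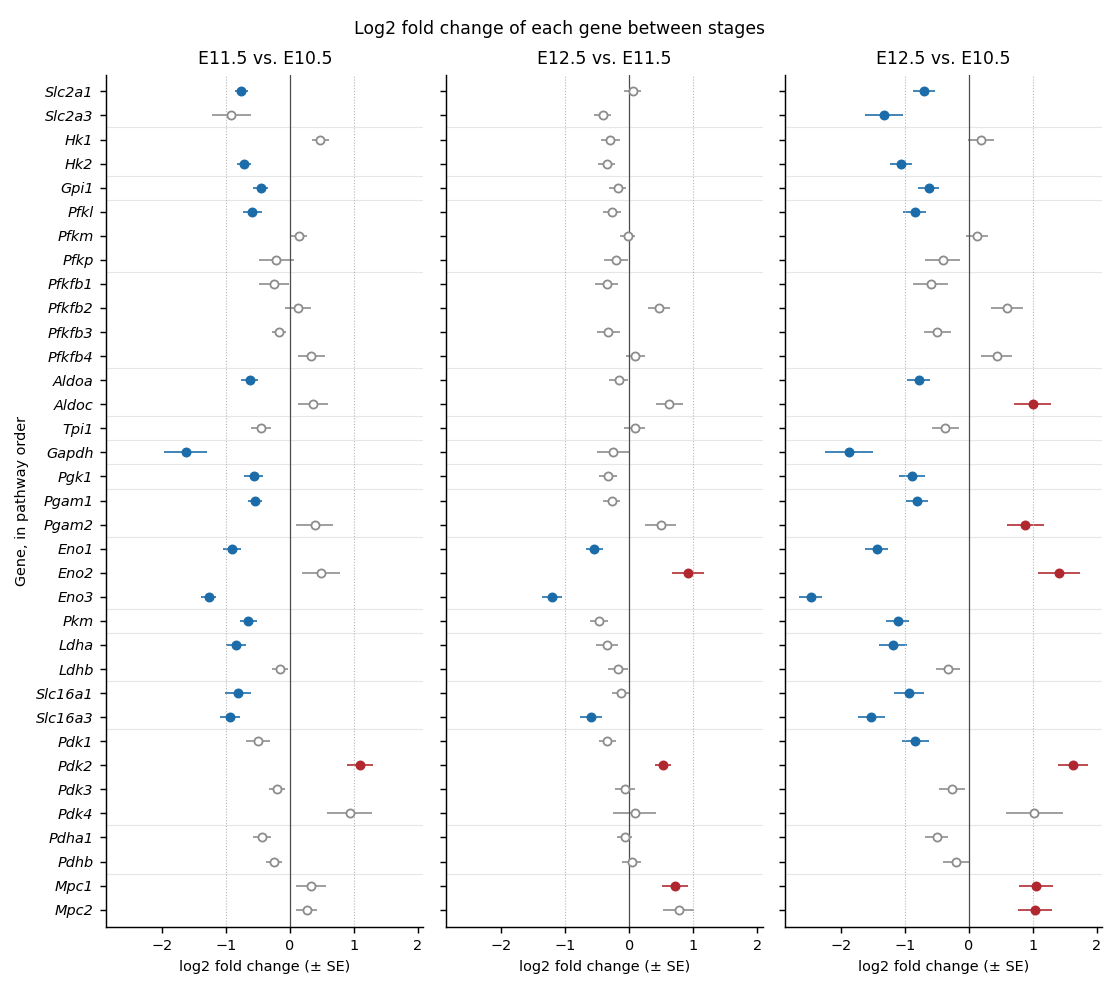
Log2 fold change (point) with its standard error (bar) of each gene in the 3 comparisons, in pathway order; filled points passed the test (blue lower, red higher at the later stage), open points did not, and dotted lines mark a log2 fold change of 1 in either direction. Filled blue points run along the pathway in E11.5 vs. E10.5 (14 genes) and E12.5 vs. E10.5 (16 genes), and Pdk2 is the one filled red point in E11.5 vs. E10.5.

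At the entry of the pathway, the main glucose transporter was downregulated early and then level. Slc2a1, the widely expressed GLUT1, had 179, 179 and 164 CPM in the E10.5 libraries, 93.3, 111 and 104 CPM at E11.5, and 119, 107 and 94.6 CPM at E12.5. All E10.5 libraries lay above all later ones, while E11.5 and E12.5 overlapped. Its log2 fold change was -0.76 ± 0.11 (SE) in E11.5 vs. E10.5 (adjusted p = 0.00455), 0.05 ± 0.13 in E12.5 vs. E11.5 (adjusted p = 0.818) and -0.70 ± 0.17 in E12.5 vs. E10.5 (adjusted p = 0.012). Slc2a3, the high-affinity transporter GLUT3, had 91.4, 108 and 220 CPM at E10.5, 71.6, 75.1 and 75.5 CPM at E11.5, and 52.1, 64.4 and 50.6 CPM at E12.5. The stages did not overlap, but E10.5 replicate 3 held about as much as the other E10.5 libraries together. Slc2a3 passed the test in E12.5 vs. E10.5 (log2 fold change -1.32 ± 0.30, adjusted p = 0.00887). Without E10.5 replicate 3 the value was -0.83 (adjusted p = 0.005), and Slc2a3 was then no DEG. In E11.5 vs. E10.5 it did not pass with all libraries (-0.92 ± 0.30, adjusted p = 0.0896) and did without E10.5 replicate 3, at the smaller value of -0.43 (adjusted p = 0.00124).

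Of the hexokinases, which trap glucose as its phosphate, Hk2 fell and Hk1 did not pass the test. Hk2 had 97.1, 110 and 103 CPM at E10.5, 61.8, 68.8 and 56.8 CPM at E11.5, and 49.8, 54.4 and 43.1 CPM at E12.5. Its log2 fold change was -0.72 ± 0.11 in E11.5 vs. E10.5 (adjusted p = 0.00656) and -1.06 ± 0.17 in E12.5 vs. E10.5 (adjusted p = 0.00118). Hk1 had 54.7, 54.2 and 41.5 CPM at E10.5, 64.3, 74.5 and 69.7 CPM at E11.5, and 60.4, 65.5 and 44.5 CPM at E12.5. The E11.5 libraries lay above those of E10.5 and overlapped with those of E12.5. The difference from E10.5 gave an adjusted p of 0.0569 with all libraries and of 0.00414 without E10.5 replicate 3. Counted per gene length, Hk2 made up 71.7%, 74.3% and 78.0% of the hexokinase counts at E10.5, 57.9%, 56.9% and 53.8% a day later, and 54.1%, 54.3% and 58.1% at E12.5. The E10.5 shares lay above all others (exact permutation F test of the 3 stages over the 280 assignments of the 9 libraries, p = 0.0357, adjusted p = 0.051 over the 20 isozyme shares tested). Gpi1, the isomerase that follows, was 337 to 370 CPM at E10.5, 229 to 292 CPM at E11.5 and 203 to 251 CPM at E12.5 and was downregulated in E11.5 vs. E10.5 (log2 fold change -0.45 ± 0.12, adjusted p = 0.0432) and E12.5 vs. E10.5 (-0.63 ± 0.17, adjusted p = 0.0205).

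At the committed step, the liver-type phosphofructokinase fell and the muscle type passed the test in no comparison. Pfkl had 325, 360 and 275 CPM at E10.5, 183, 250 and 204 CPM at E11.5, and 159, 178 and 194 CPM at E12.5. It was downregulated in E11.5 vs. E10.5 (log2 fold change -0.59 ± 0.15, adjusted p = 0.0418) and in E12.5 vs. E10.5 (-0.85 ± 0.18, adjusted p = 0.00623). Pfkm had 69.9, 71.6 and 56.1 CPM at E10.5, 66.8, 75.1 and 76.2 CPM at E11.5, and 75.7, 68.9 and 70.4 CPM at E12.5, with adjusted p-values of 0.488 to 0.895 in the 3 comparisons. The share of Pfkm in the step's counts per length was 28.1% to 29.7% at E10.5, then 37.1% to 42.2%, and 41.6% to 48.1% in the E12.5 libraries, with a matching fall of Pfkl from 69.0% to 70.6% at E10.5 to 50.6% to 57.3% at E12.5 (exact permutation p = 0.0107 each, adjusted p = 0.0214 each). Pfkp, the platelet type, was 6.81 to 13.5 CPM and took 0.869% to 1.42% of the step in every library.

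The 4 Pfkfb genes encode the enzymes that make and remove fructose-2,6-bisphosphate, the strongest activator of phosphofructokinase. None passed the test in any comparison. Pfkfb3 was the most abundant per length in all 3 stages, with 44.5 to 52.8 CPM at E10.5, 40.4 to 45.7 CPM at E11.5 and 29.1 to 45.4 CPM at E12.5. Its share of the 4 fell from 58.7% ± 3.4 to 53.9% ± 2.0 and 46.6% ± 5.4 (SD, n = 3; exact permutation p = 0.0143, adjusted p = 0.026). The shares of Pfkfb2 (7.83%, 8.84% and 13.4%) and Pfkfb4 (18.8%, 24.5% and 29.0%) differed the other way (exact permutation p = 0.0179 each, adjusted p = 0.0275 each). Without E10.5 replicate 3 these 3 shares gave adjusted p-values of 0.105, 0.0536 and 0.121. Pfkfb1 was 4.0 to 8.30 CPM over all libraries.

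In the middle of the pathway Aldoa, Pgk1 and Pgam1 fell, and Tpi1 did not pass the test. Aldoa, the main aldolase, had 587, 670 and 644 CPM at E10.5, 358, 481 and 386 CPM at E11.5, and 405, 317 and 376 CPM at E12.5, and was downregulated in E11.5 vs. E10.5 (log2 fold change -0.63 ± 0.13, adjusted p = 0.0217) and E12.5 vs. E10.5 (-0.78 ± 0.18, adjusted p = 0.00904). Pgk1, phosphoglycerate kinase, which makes the first ATP, had 683, 738 and 942 CPM at E10.5, 490, 587 and 516 CPM at E11.5, and 378, 390 and 499 CPM at E12.5, with log2 fold changes of -0.57 ± 0.15 (adjusted p = 0.0439) and -0.89 ± 0.20 (adjusted p = 0.00864) in the same comparisons. Pgam1, the main phosphoglycerate mutase, had 507, 569 and 553 CPM at E10.5, 339, 406 and 371 CPM at E11.5, and 344, 304 and 277 CPM at E12.5 (-0.54 ± 0.11, adjusted p = 0.0183, and -0.81 ± 0.17, adjusted p = 0.00669). For each of these genes every E10.5 library lay above every later one. Tpi1, triosephosphate isomerase, had 495 to 699 CPM at E10.5, 373 to 475 CPM at E11.5 and 381 to 550 CPM at E12.5 and passed the test in no comparison with all libraries, but in E11.5 vs. E10.5 gave an adjusted p of 0.0221 without E10.5 replicate 3.

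The minor forms of the same steps went the other way. Aldoc, the brain-type aldolase, had 1.96, 2.15 and 2.73 CPM at E10.5, 2.80, 3.17 and 2.79 CPM at E11.5, and 5.01, 3.77 and 4.83 CPM at E12.5, and was upregulated in E12.5 vs. E10.5 (log2 fold change 1.00 ± 0.29, adjusted p = 0.0286), a call that held in 2 of 6 fits with a library left out. Its share of the aldolase counts per length rose from 0.32% ± 0.05 to 0.64% ± 0.05 and 1.09% ± 0.04, without overlap between stages. Pgam2, the muscle-type mutase, had 2.5, 2.5 and 1.67 CPM at E10.5, 3.07, 2.12 and 3.53 CPM at E11.5, and 4.06, 4.21 and 4.0 CPM at E12.5. It was upregulated in E12.5 vs. E10.5 (0.88 ± 0.29, adjusted p = 0.0478), a call that was lost when any 1 of the 6 libraries was left out. The share of Pgam2 rose from 0.89% ± 0.21 to 1.70% ± 0.50 and 2.83% ± 0.28. For the Aldoc and the Pgam2 share the exact permutation p was 0.00357, the smallest that the 9 libraries allow, and the adjusted p 0.00893.

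Gapdh needs a caution of its own. Its row held 24.8, 32.5 and 11.7 CPM at E10.5, 7.16, 8.18 and 6.85 CPM at E11.5, and 8.96, 4.80 and 4.89 CPM at E12.5, far below its neighbours Tpi1 and Pgk1, although it encodes one of the most abundant enzymes of most cells. Of its 50-base windows, 24.7% also occur in genes elsewhere in the genome. Of these genes, 168 shared at least 10 windows and are annotated as pseudogenes or retrotransposed, and these are taken as its copies. They held 13636 counts over all libraries, beside 1929 for Gapdh itself, so that 87.6% of the sum lay outside the Gapdh row. The log2 fold change of the Gapdh row was -1.63 ± 0.34 in E11.5 vs. E10.5 (adjusted p = 0.0194) and -1.88 ± 0.38 in E12.5 vs. E10.5 (adjusted p = 0.00462). With the copies added to it the values were -0.81 (adjusted p = 0.0439) and -0.91 (adjusted p = 0.0241). The level and the size of its change are therefore uncertain, and without Gapdh the downregulated genes were 13 of 34 and 15 of 34 in these comparisons.

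Among the enolases, which form phosphoenolpyruvate, Eno1 and Eno3 were downregulated in every comparison and Eno2 was upregulated by E12.5. Eno1 (chromosome 4, 150236721-150248879, GRCm38) had 2334, 2581 and 2880 CPM at E10.5, 1235, 1585 and 1329 CPM at E11.5, and 977, 875 and 1004 CPM at E12.5. Each stage lay wholly below the one before, with log2 fold changes of -0.91 ± 0.14 (adjusted p = 0.00637), -0.55 ± 0.14 (adjusted p = 0.029) and -1.44 ± 0.18 in E12.5 vs. E10.5 (adjusted p = 0.000271). Eno3 (chromosome 11, 70657202-70662513) had 69.3, 74.2 and 71.8 CPM at E10.5, 27.0, 34.2 and 27.7 CPM at E11.5, and 13.0, 11.6 and 14.0 CPM at E12.5. It fell by about as much in each interval, by 1.27 ± 0.12 (adjusted p = 0.00146) and 1.21 ± 0.15 (adjusted p = 0.000637) on the log2 scale, and was 5.54-fold lower at E12.5 than at E10.5 (adjusted p = 6.28e-06), the largest change among the 35 genes. Eno2 (chromosome 6, 124760053-124769673) had 1.96, 1.16 and 1.55 CPM at E10.5, 1.88, 2.12 and 2.53 CPM at E11.5, and 4.79, 4.31 and 3.22 CPM at E12.5, and was upregulated in E12.5 vs. E11.5 (log2 fold change 0.91 ± 0.25, adjusted p = 0.0376) and E12.5 vs. E10.5 (1.41 ± 0.33, adjusted p = 0.0106).

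Set against each other per gene length, Eno1 made up 92.0% ± 0.7, 93.6% ± 0.1 and 95.5% ± 0.01 of the enolase counts of the 3 stages in turn (SD, n = 3). Eno3 went from 8.40%, 8.16% and 7.16% through 6.33%, 6.25% and 6.03% to 3.94%, 3.92% and 4.12%. Eno2 went from 0.0879%, 0.0472% and 0.0570% through 0.163%, 0.143% and 0.204% to 0.536%, 0.539% and 0.350%. None of the 3 shares overlapped between any pair of stages (exact permutation p = 0.00357, adjusted p = 0.00893 each), and within a step the shares add up to 100%, so that they are not independent of each other. Eno1 shares 26.0% of its windows with other genes, above all Eno1b, which held 10084 counts, while Eno3 shares none and Eno2 0.0194%. Markers of the tissues that Eno3 and Eno2 are named for were read beside them. Of the 14 skeletal muscle genes, 5 could be tested in each comparison and Des, desmin, was the only one to pass, with 15.3, 3.29 and 0.81 CPM on average at the 3 stages, while the means of Myod1, Myog, Myf6 and Acta1 were at most 0.77 CPM. Over the 3 stages together, 6 of these genes could be tested and 2 passed, Des and Actc1. Actc1 had 0.69, 0.14 and 0.71 CPM on average. Mylpf (1.69, 1.46 and 1.56 CPM) and Tnnt1 (1.74, 1.58 and 1.72 CPM) passed in no test. All 5 testable genes had a log2 fold change below 0 in the first interval. In the second, 2 lay below 0 and 3 above. The 9 neuronal markers summed to 233 to 261 CPM at E10.5, 275 to 296 CPM at E11.5 and 390 to 469 CPM at E12.5, with Stmn2 and Gap43 up and Isl1 down in E12.5 vs. E10.5. Their part in the enolase shares was not tested.

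**Figure D3:**
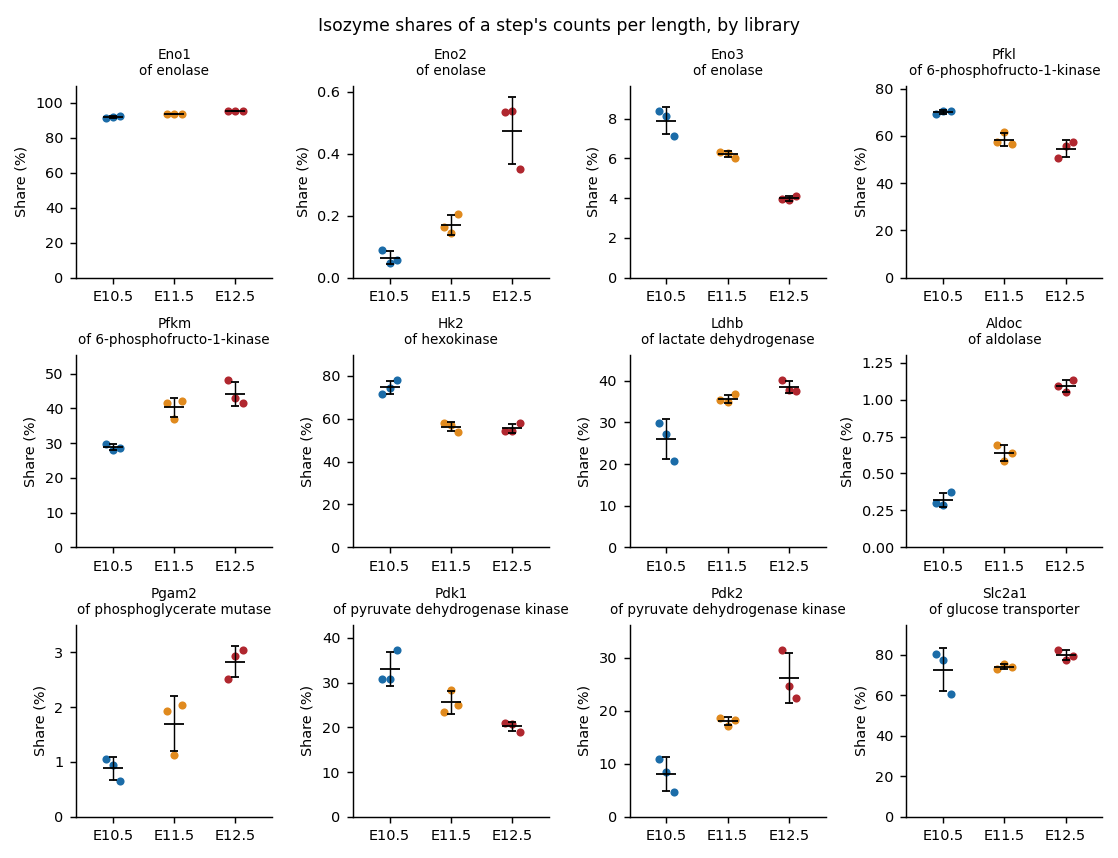
Share of a step's counts per gene length (%, from 0) taken by 12 isozymes or transporters in each library (points), with the mean and SD of the 3 libraries of a stage in black. Stages are apart for Eno2, Eno3, Aldoc, Pgam2, Ldhb, Pdk1 and Pdk2, the E10.5 libraries are apart from the rest for Hk2, Pfkl and Pfkm, and the Slc2a1 share of the glucose transporters (60.6% to 82.5%) overlaps.

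Pyruvate kinase and lactate dehydrogenase A, at the end of the pathway, were the genes with the most counts next to Eno1. Pkm had 2745, 2955 and 3224 CPM at E10.5, 1680, 2151 and 1835 CPM at E11.5, and 1342, 1308 and 1456 CPM at E12.5. The stages did not overlap, and the log2 fold change was -0.65 ± 0.13 in E11.5 vs. E10.5 (adjusted p = 0.0175), -0.47 ± 0.14 in E12.5 vs. E11.5 (adjusted p = 0.0502) and -1.11 ± 0.18 in E12.5 vs. E10.5 (adjusted p = 0.00124). The counts are per gene, so its alternatively spliced forms, PKM1 and PKM2, are not told apart. Ldha, which favours the formation of lactate, had 1255, 1465 and 1753 CPM at E10.5, 735, 954 and 794 CPM at E11.5, and 584, 561 and 812 CPM at E12.5, with log2 fold changes of -0.85 ± 0.16 in E11.5 vs. E10.5 (adjusted p = 0.0139) and -1.19 ± 0.22 in E12.5 vs. E10.5 (adjusted p = 0.00264).

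Ldhb, the form that favours lactate oxidation, had 255, 261 and 217 CPM at E10.5, 191, 244 and 219 CPM at E11.5, and 186, 162 and 232 CPM at E12.5. These overlapped, with adjusted p-values of 0.229 to 0.469. As the share of the lactate dehydrogenase counts per length, Ldhb went from 30.0%, 27.3% and 20.7% through 35.3%, 35.03% and 36.7% to 40.1%, 37.9% and 37.6%, without overlap (exact permutation p = 0.00357, adjusted p = 0.00893). Without E10.5 replicate 3, the lowest of them, the adjusted p was 0.0143.

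Both lactate transporters were downregulated in E11.5 vs. E10.5, with calls that depended on single libraries. Slc16a1, the widely expressed MCT1, had 108, 113 and 184 CPM at E10.5, 70.7, 81.9 and 77.0 CPM at E11.5, and 59.1, 73.2 and 78.5 CPM at E12.5 (log2 fold change -0.82 ± 0.21 in E11.5 vs. E10.5, adjusted p = 0.0405, and -0.93 ± 0.23 in E12.5 vs. E10.5, adjusted p = 0.0136). Without E10.5 replicate 3, the highest library, the first value was -0.52 (adjusted p = 0.000187). Slc16a3, MCT4, the form of strongly glycolytic cells, had 77.7, 97.5 and 73.1 CPM at E10.5, 38.3, 51.1 and 39.8 CPM at E11.5, and 32.7, 30.9 and 22.4 CPM at E12.5. Its stages did not overlap, and it passed the test in all 3 comparisons, with log2 fold changes of -0.94 ± 0.16 (adjusted p = 0.00941), -0.59 ± 0.17 (adjusted p = 0.0478) and, over the whole interval, -1.52 ± 0.21 (adjusted p = 0.000396). Its call in E12.5 vs. E11.5 held in 1 of 6 fits with a library left out and was lost with upper quartile normalization, with at least 10 counts in every library and in the fit on all 9 libraries. The share of Slc16a3 in the pair was 34.7% ± 8.8, 31.8% ± 2.1 and 25.6% ± 6.2 and overlapped (exact permutation p = 0.296, adjusted p = 0.329). At E10.5 it was 37.4%, 41.9% and, in replicate 3, 24.9%. Without that library the adjusted p of the same test was 0.0455.

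Among the kinases that switch off pyruvate dehydrogenase, Pdk2 rose and Pdk1 fell. Pdk2 had 11.6, 10.2 and 6.75 CPM at E10.5, 20.9, 20.0 and 20.1 CPM at E11.5, and 31.2, 29.6 and 27.1 CPM at E12.5. The stages did not overlap, and Pdk2 passed the test in all 3 comparisons (log2 fold change 1.10 ± 0.20, adjusted p = 0.0128, then 0.52 ± 0.13, adjusted p = 0.0228, and 1.63 ± 0.23 over both, adjusted p = 0.000548). Pdk1, the hypoxia-inducible form, had 79.8, 90.6 and 131 CPM at E10.5, 64.7, 80.9 and 67.1 CPM at E11.5, and 50.7, 60.9 and 56.3 CPM at E12.5, and was downregulated in E12.5 vs. E10.5 (-0.84 ± 0.21, adjusted p = 0.0146). Pdk3 (37.4 to 66.5 CPM over all libraries) and Pdk4 (0.495 to 2.21 CPM) passed in none. Per length, Pdk2 rose from 8.07% ± 3.1 through 18.1% ± 0.8 to 26.3% ± 4.7 of the kinase counts and Pdk1 went from 33.0% ± 3.8 through 25.6% ± 2.5 to 20.2% ± 1.1 (exact permutation p = 0.00357 and adjusted p = 0.00893 each). Pdk3 held the largest share per length in every library, with 58.3% ± 1.4, 55.1% ± 1.8 and 52.3% ± 5.3 (exact permutation p = 0.114). Without division by length, Pdk1 had more counts than Pdk3 in every library.

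The enzyme these kinases act on and the carrier that feeds it did not share a direction. The genes of its E1 subunits passed in no comparison of 2 stages, and Pdha1 passed over the 3 stages together (adjusted p = 0.0306). Pdha1 had 123 to 166 CPM at E10.5, 92.1 to 111 CPM at E11.5 and 94.3 to 103 CPM at E12.5 (adjusted p = 0.0616 in E12.5 vs. E10.5, and called lower there with DESeq2, with the GC trend removed and in the fit on all 9 libraries), and Pdhb 122 to 160 CPM, 110 to 123 CPM and 102 to 146 CPM (adjusted p = 0.506). The genes of both carrier subunits were upregulated in E12.5 vs. E10.5. Mpc1 had 2.26, 3.02 and 2.91 CPM at E10.5, 3.01, 3.99 and 3.27 CPM at E11.5, and 5.92, 5.72 and 5.31 CPM at E12.5 (log2 fold change 1.06 ± 0.27, adjusted p = 0.0148). It also passed in E12.5 vs. E11.5 (0.71 ± 0.20, adjusted p = 0.0427), a call that was lost with the counts of the pseudogene Mpc1-ps added, which held 966 counts beside 638 for Mpc1, and also with DESeq2 and in the fit on all 9 libraries. With the pseudogene added, the value in E12.5 vs. E10.5 was 0.67 (adjusted p = 0.0453), no longer a DEG. Mpc2 had 20.1, 15.2 and 17.0 CPM at E10.5, 18.4, 20.3 and 24.1 CPM at E11.5, and 38.7, 22.1 and 46.6 CPM at E12.5 (1.04 ± 0.27, adjusted p = 0.0159), with E12.5 replicate 2 within the range of E11.5. The carrier calls in E12.5 vs. E10.5 were lost without E12.5 replicate 1, that of Mpc1 also without E10.5 replicate 1 and that of Mpc2 also without E12.5 replicate 3.

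Because the main glycolytic genes moved together, their promoter windows (250 bases before to 50 after a RefSeq transcript start, GRCm38.p6) were searched for ACGTG, the core of the hypoxia response element, on both strands, and for CACGTG, the E-box of Myc and related factors, which contains ACGTG. Windows were found for 34 of the 35 genes, 54 in all. ACGTG was present in 22 of the 54 (40.7%), against 19.6% of all 32851 windows, and CACGTG in 6 (11.1%), against 7.15%. The median GC content was 60.8% in these windows and 52.7% in all windows, and its part in the difference was not tested. At least 1 window with ACGTG was found for 10 of the 15 matched genes that were downregulated in E12.5 vs. E10.5, 2 of the 6 upregulated and 6 of the 13 others. The motif thus occurred in genes of either direction. A gene can have several windows, so these counts of genes cannot be set against the 19.6%, which is a share of windows. The share over all genes was not counted. Upstream stretches of 250 bases are printed 5′ to 3′ on the gene's strand, with ACGTG or its reverse complement CACGT in capitals, overlapping matches forming CACGTG. Ldha (chr7:46845554-46845803, plus strand) and Pgk1 (chrX:106186850-106187099, plus strand) stand for the abundant genes that fell and have a match. Slc16a3 (chr11:120948817-120949066, plus strand) is the only one with a match of the 3 genes that fell in both intervals. Eno1, also abundant, and Eno3 have none. Pdk2 (chr11:95041372-95041621, minus strand) stands for the gene that rose in both intervals. Eno3 (chr11:70656926-70657175, plus strand), with no match, stands for the largest change.
Ldha: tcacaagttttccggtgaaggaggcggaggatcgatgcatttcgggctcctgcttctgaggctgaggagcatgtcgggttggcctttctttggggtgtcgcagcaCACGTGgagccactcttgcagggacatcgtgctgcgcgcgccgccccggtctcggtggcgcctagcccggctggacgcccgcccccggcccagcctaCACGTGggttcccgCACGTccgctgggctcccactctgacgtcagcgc
Pgk1: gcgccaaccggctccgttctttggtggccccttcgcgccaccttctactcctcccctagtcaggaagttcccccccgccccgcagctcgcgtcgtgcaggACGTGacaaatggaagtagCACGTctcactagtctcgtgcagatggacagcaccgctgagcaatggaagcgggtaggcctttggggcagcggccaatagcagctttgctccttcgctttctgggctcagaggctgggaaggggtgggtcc
Slc16a3: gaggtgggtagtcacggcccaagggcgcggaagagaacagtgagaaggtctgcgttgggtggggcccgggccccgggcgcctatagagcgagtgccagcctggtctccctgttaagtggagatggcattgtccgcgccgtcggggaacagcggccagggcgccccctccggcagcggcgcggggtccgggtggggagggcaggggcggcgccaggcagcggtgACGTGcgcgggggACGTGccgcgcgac
Pdk2: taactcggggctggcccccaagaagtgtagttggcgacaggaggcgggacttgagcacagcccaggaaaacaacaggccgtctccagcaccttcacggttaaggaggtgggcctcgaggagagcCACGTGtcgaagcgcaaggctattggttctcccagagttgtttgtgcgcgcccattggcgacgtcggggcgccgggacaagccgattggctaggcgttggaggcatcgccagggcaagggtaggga
Eno3: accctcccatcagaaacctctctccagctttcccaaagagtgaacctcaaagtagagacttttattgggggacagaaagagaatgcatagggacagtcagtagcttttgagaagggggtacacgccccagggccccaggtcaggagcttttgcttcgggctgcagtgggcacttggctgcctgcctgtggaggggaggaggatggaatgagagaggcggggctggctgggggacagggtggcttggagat
Ldha and Pdk2 each have a second annotated start, whose window holds no match.

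Genes of neighbouring pathways were read from the same test. Of 12 other isozymes of these steps, 7 could be tested. Pklr, the liver and red cell pyruvate kinase, fell from 14.9 through 5.11 to 1.05 CPM and was a downregulated DEG in all 3 comparisons, while the transporters Slc16a7 and Slc2a4 were upregulated in E12.5 vs. E10.5. None of the 16 genes of the tricarboxylic acid cycle passed in any comparison of 2 stages, with medians of -0.14 and 0.07 in the first and the second interval and -0.11 over both. Cs, citrate synthase, was the only one to pass over the 3 stages together (345, 305 and 248 CPM, adjusted p = 0.0411). In the pentose phosphate pathway, which branches off after hexokinase, 1 of 7 passed in a comparison of 2 stages, Rpia, which was higher in E12.5 vs. E10.5 (22.3 against 35.7 CPM). Pgd (181, 148 and 130 CPM) and Tkt (479, 372 and 339 CPM) also passed over the 3 stages together, with lower levels at the later stages. None of the 3 testable gluconeogenic genes and neither Tigar nor Bpgm passed. Of the other 6 genes of the pyruvate dehydrogenase complex, Pdp2, a phosphatase that reactivates it, was downregulated in E12.5 vs. E11.5 (29.6 against 19.7 CPM). The NADH shuttles, which carry the reducing equivalents of glycolysis into mitochondria, had 3 of 8 genes downregulated in E12.5 vs. E10.5, among them Slc25a13 (97.3, 59.0 and 34.3 CPM) and Gpd2 (55.7, 41.6 and 27.5 CPM).

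Regulators that are known to act on glycolytic genes were read in the same way. Among 6 Myc and Mondo factors, Mycn fell from 137 through 86.3 to 60.03 CPM and passed in all 3 comparisons, Myc fell from 50.9 to 30.3 CPM in E11.5 vs. E10.5, and 3 of 6 were downregulated in E12.5 vs. E10.5. Of 10 hypoxia-inducible factors and their regulators, Hif3a rose (15.8, 42.4 and 51.2 CPM) and Hif1an fell (151, 132 and 89.4 CPM), each passing in E12.5 vs. E10.5. Of 13 hypoxia-inducible genes outside the 35 that could be tested, 3 were upregulated in E12.5 vs. E10.5, among them Ndrg1 (3.67, 5.67 and 10.7 CPM) and Ddit4 (48.6, 79.8 and 130 CPM), and 1, Ero1l, was downregulated (49.8, 40.1 and 27.5 CPM). The median of the 13 was -0.24 in E11.5 vs. E10.5, beside -0.44 for the 35 glycolysis and pyruvate genes. It was 0.21 in E12.5 vs. E11.5, beside -0.18, and 0.13 in E12.5 vs. E10.5, beside -0.50. No difference between lists was tested.

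**Figure D4:**
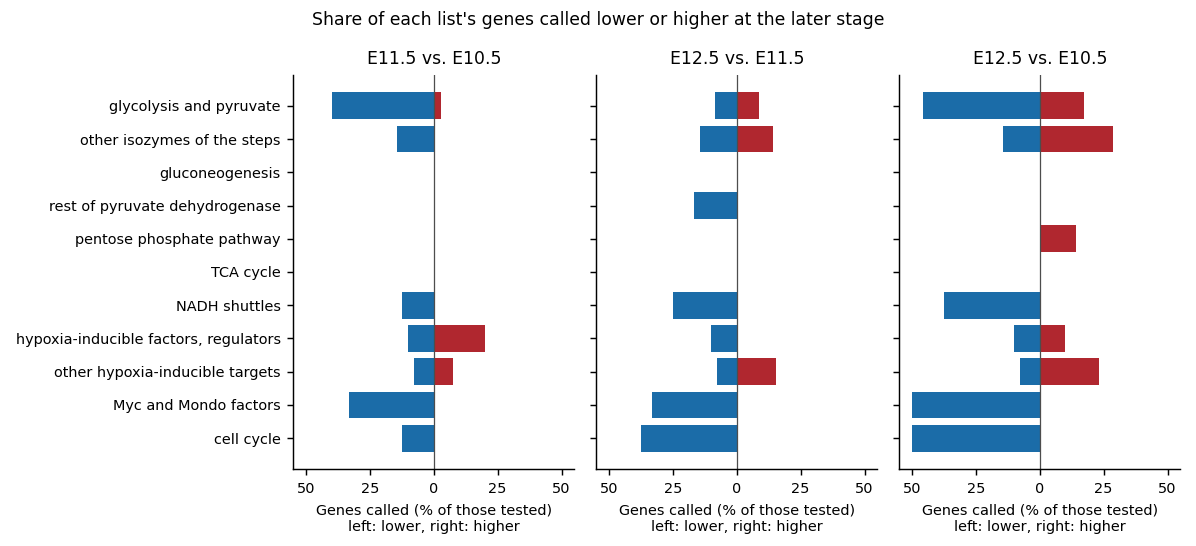
Percent of the tested genes of each list that were called lower (blue, to the left) or higher (red, to the right) at the later stage, in the 3 comparisons. The bar for the glycolysis and pyruvate genes stands for 14 lower and 1 higher of 35 in E11.5 vs. E10.5 and 16 lower and 6 higher in E12.5 vs. E10.5; the TCA cycle has no bar in any of the 3.

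Marker genes of other cell types also differed between stages, and the lists did not share a direction. All 10 neural progenitor markers were downregulated in E11.5 vs. E10.5, with a median log2 fold change of -2.42, and their summed expression was 380 to 518 CPM at E10.5, 131 to 153 CPM at E11.5 and 135 to 164 CPM at E12.5. Sox1, for instance, went from 48.8 to 0.63 CPM. Of the 6 facial mesenchyme markers 4 were upregulated in the same comparison, 2 of them as DEGs. In E12.5 vs. E11.5 none of the 6 was upregulated and 1 was downregulated. In E12.5 vs. E10.5, 4 were upregulated and 1 was a downregulated DEG. Cell cycle genes summed to 3794 to 5198 CPM, 3522 to 3783 CPM and 2680 to 2843 CPM, with 4 of 8 downregulated in E12.5 vs. E10.5, among them Mcm5 and Mcm2. The erythroid list of hemoglobin and red cell membrane genes summed to 3550 to 4772 CPM, 5401 to 5744 CPM and 4563 to 5915 CPM. The part of these markers in the values of the glycolytic genes was not tested.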

How the data were processed

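Lambdoidal junction tissue was sequenced in 9 libraries, 3 per stage, grouped by the labels. Per the methods and the submitters' processing notes, reads were mapped to mm10 with HISAT2 2.0.5 and counted per gene with featureCounts. The authors deposited raw counts, FPKM and gene lengths for 54532 genes, with their own fold changes and p-values, which were not used. The deposited FPKM values served only as an alternative for the isozyme shares. Strand and multi-mapping settings are not given in the sources used here. Depth was 16581009 to 20836804 counts per library.

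The 35 members and all lists were chosen with earlier results of these data known. Fits used the 6 libraries of a pair of stages, with filterByExpr, TMM normalization and edgeR 4.0.16's quasi-likelihood test (R 4.3.3, limma 3.58.1), tested beforehand on simulated data. A gene was called at a Benjamini-Hochberg adjusted p of at most 0.05 over all genes, and was a DEG where its log2 fold change also reached 1 in either direction. SEs were obtained as the size of the log2 fold change over the root of F. The 3 stages were also fitted together. Expression is CPM on TMM-scaled sizes of all 9 libraries. Isozyme shares are counts divided by gene length, in percent of a step, tested with an exact permutation F test over 280 assignments of the libraries to stages, with Benjamini-Hochberg adjustment over 20 shares. With 3 libraries against 3, an exact test of 2 stages cannot go below 0.1, so none was made. P-values set a difference between stages against the spread between libraries, each a pool of embryos, and not against that between embryos. Shared sequence was counted in 50-base windows of GENCODE vM21 transcripts. Genes elsewhere sharing at least 10 windows were taken as copies if annotated as a pseudogene or as retrotransposed.

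All 35 genes are accounted for. Some marker genes of the lists are not reported singly here. Values per library are given for single-gene steps with a call and for isozymes of steps with a call, and from each other list up to 3 genes with the smallest p over the 3 stages are named, with others added where they bear on a result, chosen after their values were seen. Marker lists are described by counts and summed CPM, and those not described beside a result are in the closing section. The alternatives were DESeq2 1.42.0, its size factors in edgeR, upper quartile normalization, other filters, the fit on 9 libraries, the replicate block, pseudogene counts added, and each library left out. Copies by shared sequence and removal of each library's GC trend were added after the data had been seen. Same-numbered libraries of different stages deviated together with correlations of -0.151 to 0.22, so the numbers were not treated as pairs. Python 3.11.15, numpy 2.4.6, pandas 2.3.3 and matplotlib 3.10.9 made the tables and figures.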

Additional observations from a re-analysis of the deposited data

How the results depend on the processing

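No called result of the 35 genes changed direction under any alternative, and of 774 repeats of called results 108 fell short of the threshold, most of them with a library left out. In E11.5 vs. E10.5, the count of downregulated genes ranged from 2 to 19 with single libraries left out, that of upregulated genes from 0 to 2 and that of DEGs from 1 to 4. The upregulated count was 2 with DESeq2, with all genes of at least 1 count, with the GC trend removed, and with the GC trend removed and the replicate block. In E12.5 vs. E11.5, the leave-one-out ranges were 1 to 9 downregulated, 0 to 5 upregulated and 1 to 2 DEGs. There, the downregulated count was 5 with DESeq2, with DESeq2's size factors in edgeR and with all genes of at least 1 count, and the upregulated count was 0 in the fit on all 9 libraries and 1 with the GC trend removed and the replicate block. In E12.5 vs. E10.5, leaving out single libraries gave 1 to 5 upregulated genes. The causes were not tested, beyond the smaller number of libraries.

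The replicate numbers are names only. With the replicate block, 12 genes were downregulated in the first interval and 16 over both, and 22 passed over the 3 stages; not every library correlated best with those of its own number. Calls that held in every alternative and without each library were Slc2a1 and Eno3 for E11.5 vs. E10.5, Eno3 alone for E12.5 vs. E11.5, and Hk2, Pfkl, Aldoa, Gapdh, Pgam1, Eno1, Eno3, Pkm, Ldha, Slc16a3 and Pdk2 in E12.5 vs. E10.5. The number of isozyme shares that passed was 13 as given and 11 to 15 under the alternatives.

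Signs changed only for genes that passed in neither setting. Leave-one-out log2 fold changes ranged from -0.033 to 0.274 for Pfkfb2 in E11.5 vs. E10.5. For E12.5 vs. E11.5 they ranged from -0.027 to 0.12 for Slc2a1, -0.11 to 0.18 for Tpi1, -0.20 to 0.089 for Pdk3, -0.20 to 0.34 for Pdk4 and -0.15 to 0.14 for Pdhb. Pfkm in E12.5 vs. E11.5 was 0.029 with upper quartile normalization. Genes with few counts, such as Eno2, Aldoc, Pgam2, Pdk4 and Mpc1, limit what could be detected.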

Other observations

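Other marker lists moved in part. Among 5 bone genes, Sp7 went from 1.67 through 7.23 to 28.7 CPM and Runx2 from 4.44 through 59.8 to 99.3 CPM, both passing in all 3 comparisons, while Ibsp was lower in E11.5 vs. E10.5 (1.42 against 0.17 CPM), and the list summed to 26.3 to 29.1 CPM at E10.5, 62.7 to 101 CPM at E11.5 and 157 to 184 CPM for E12.5. Among 6 cartilage genes, Acan went from 0.18 through 0.74 to 10.5 CPM and passed in all 3, while Col2a1 was lower in E12.5 vs. E10.5 (688 against 377 CPM). In the surface epithelium list of 8 genes, Krt5 went from 2.12 through 34.5 to 151 CPM and Krt14 from 16.0 through 31.3 to 158 CPM, while Krt18 (94.8, 46.4 and 46.6 CPM) and Krt8 (110.5, 60.7 and 61.9 CPM) were lower at E11.5 and E12.5 than at E10.5. None of the 5 endothelial genes passed in any comparison (104 to 259 CPM, 253 to 271.6 CPM and 203 to 273 CPM summed), and of 5 macrophage genes C1qa passed, in E12.5 vs. E10.5 (1.5 against 4.77 CPM).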
